A study of Mus musculus with 29 samples.

Results

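The genes of WNT signaling described here are 46 of the 56953 features in the count table of cultured adipose stromal cells. They were taken by a rule on symbols that uses no measured value, though earlier results of these data were known by then. They are 19 WNT ligands, 4 R-spondins (Rspo1 to Rspo4), 10 frizzled receptors (Fzd), the 2 co-receptors Lrp5 and Lrp6, 5 secreted frizzled-related proteins (Sfrp1, Sfrp2, Sfrp4, Sfrp5 and Frzb), 4 Dickkopf genes (Dkk1 to Dkk4), Wif1, and the feedback target Axin2. At least 1 count was found for 43 of them, 6 were detected in all 29 libraries, and 13 passed the filter on low counts and were tested.

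The study asked how depot and sex shape the precursor cells of white fat, and WNT genes were among those it discussed. Its cultures were started from the stromal vascular fraction (SVF), the cells that remain when digested fat is freed of its adipocytes, of C57BL6/J mice. The fat was either inguinal, a subcutaneous depot (iWAT), or perigonadal, a visceral depot (pgWAT). All cultures were grown in PM1 medium with 1 nM basic FGF for 4 days and were not induced to differentiate, and each RNA sample became 1 Smart-seq3 library. By label, the 19 iWAT libraries were 10 male and 9 female, and the 10 pgWAT libraries were 4 male and 6 female. The labels give no age, but the study states that adult mice were used for its in vitro experiments. No untreated or uncultured sample enters these groups. The study describes the libraries as technical replicates of few independent experiments, fewer for pgWAT than for iWAT. Here n therefore counts wells, not independent cultures, and the p-values below measure the spread between wells. These are bulk samples, in which more cells of a type and more RNA per cell cannot be told apart.

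WNT proteins are lipid-modified secreted ligands that bind a frizzled receptor together with Lrp5 or Lrp6. In the canonical branch this stabilizes beta-catenin, which acts with TCF/LEF factors on target genes such as Axin2, itself a brake on the pathway. R-spondins keep frizzled receptors on the cell surface and so potentiate WNT. SFRP proteins, Frzb and Wif1 bind the ligands outside the cell, while Dkk1, Dkk2 and Dkk4 bind the LRP co-receptors, and Dkk3 is a divergent relative whose role is less clear. In fat, canonical WNT signaling is known for restraining the differentiation of adipocyte precursors.

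The stretches of 250 bases upstream of the start site are shown for 5 of the genes, from RefSeq on GRCm38.p6. Frzb and Rspo1 are the members whose libraries did not overlap between depots. Dkk2 and Wnt2 were the antagonist and the ligand with the largest falls in pgWAT among those tested, and Fzd1 is the receptor the study discussed. The Frzb stretch is chr2:80447397-80447646 (minus strand), Rspo1 is chr4:124986180-124986429 (plus), Dkk2 is chr3:132085042-132085291 (plus), Wnt2 is chr6:18030446-18030695 (minus) and Fzd1 is chr5:4758217-4758466 (minus). Capitals mark 5 motifs, the TCF/LEF core (CTTTGA or CTTTGT), a T-box core (AGGTGT), an E-box (CAGCTG) and the GC box (GGGCGG) on either strand, and the TATA box (TATAAA) on the sense strand. In the stretches shown no match overlaps another.
Frzb: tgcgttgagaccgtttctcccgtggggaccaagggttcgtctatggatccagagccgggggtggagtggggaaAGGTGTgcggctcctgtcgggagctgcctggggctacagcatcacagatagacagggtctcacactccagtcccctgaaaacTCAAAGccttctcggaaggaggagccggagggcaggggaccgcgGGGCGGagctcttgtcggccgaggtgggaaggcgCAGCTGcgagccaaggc
Rspo1: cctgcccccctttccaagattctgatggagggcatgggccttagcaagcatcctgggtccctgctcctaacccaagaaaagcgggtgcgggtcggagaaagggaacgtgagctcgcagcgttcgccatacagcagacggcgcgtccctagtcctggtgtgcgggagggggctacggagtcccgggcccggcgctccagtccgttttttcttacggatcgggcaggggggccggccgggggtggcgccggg
Dkk2: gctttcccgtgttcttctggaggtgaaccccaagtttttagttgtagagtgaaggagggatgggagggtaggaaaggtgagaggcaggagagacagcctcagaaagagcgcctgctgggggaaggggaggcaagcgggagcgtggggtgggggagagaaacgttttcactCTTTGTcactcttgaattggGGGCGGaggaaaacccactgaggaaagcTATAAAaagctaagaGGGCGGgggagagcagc
Wnt2: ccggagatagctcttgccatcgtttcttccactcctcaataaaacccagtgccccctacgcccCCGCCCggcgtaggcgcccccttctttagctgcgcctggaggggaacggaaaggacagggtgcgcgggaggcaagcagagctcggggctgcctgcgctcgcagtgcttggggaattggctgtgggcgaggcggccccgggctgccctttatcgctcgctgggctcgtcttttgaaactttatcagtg
Fzd1: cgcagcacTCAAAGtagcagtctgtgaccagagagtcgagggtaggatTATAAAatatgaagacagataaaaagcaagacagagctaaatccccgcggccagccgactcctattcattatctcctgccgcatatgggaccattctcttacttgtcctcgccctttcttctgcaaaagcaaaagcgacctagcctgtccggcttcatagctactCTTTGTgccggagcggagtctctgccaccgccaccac

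Of the 46 genes, 30 were matched to a RefSeq promoter. Any of the 46 on 1 chromosome were left out of this search. The promoters over all kept that chromosome and left out chromosome Y. A gene with more than 1 promoter (Wnt5b and Wnt11) is counted if any of them holds the motif. The shares over all are of single promoters. A TCF/LEF core stood in 8 of the 30, against 27.7% of all 32619 promoters. The GC box stood in 23 of the 30, against 33.0% of all. The stretches of these genes held from 48.4% (Wnt8b) to 87.6% (Wnt3a) of G and C, against a median of 52.4% over all promoters. The part of this base content in the GC box matches was not tested. A T-box core stood in 3 (11.9% of all), the E-box in 3 (13.1% of all) and a TATA box in 4 (7.61% of all). Frzb held 1 TCF/LEF core, 1 T-box core, 1 E-box and 1 GC box. Dkk2 held 1 TCF/LEF core, 1 TATA box and 2 GC boxes, Fzd1 held 2 TCF/LEF cores and 1 TATA box, Wnt2 held 1 GC box, and Rspo1 held none of the motifs. These matches describe letters in the window and no binding was measured.

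Total counts ran from 315316 to 1102234 per library, so that 3 counts, the limit a count of 0 allows, correspond to 2.58 to 9.77 CPM in a single library. CPM values are counts scaled to a common library total. The 19 iWAT libraries matched their sex labels in Xist, the X-inactivation transcript, and in 4 Y-linked genes. Of the 10 pgWAT libraries, 5 did not. Male replicates 2 and 4 carried 24 and 60 Xist counts with at most 1 Y-linked count, female replicates 2 and 3 carried 0 Xist counts with 23 and 26 Y-linked counts, and female replicate 1 held both, with 7 Xist and 10 Y-linked counts. Results that rest on these libraries are given with and without them. Results can also be read by well column, 7 to 10. The well codes in the labels name no plate. Their rows run to P, as in the larger plate into which the study moved each RNA sample for library preparation. The column is therefore not read as a position in culture. The 3 pgWAT female libraries in doubt were in column 10 and the other 3 in column 8, and the 2 male libraries in doubt were in column 9. Column 8 also held male replicate 1, so that it holds pgWAT libraries of both kinds of sex-linked counts.

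Fibroblast markers fitted the label of a stromal culture, at a summed 6382 to 12215 CPM in iWAT and 11688 to 22743 CPM in pgWAT, and 5 of the 6 were called higher in pgWAT. Markers of other cells were called too, against 38.1% of all genes tested (20.2% higher and 17.9% lower). Called higher in pgWAT were 4 of 7 tested mesothelial markers (and 1 lower), 4 of 6 macrophage, 3 of 4 smooth muscle, 2 of 4 endothelial and 1 of 2 adipocyte markers. None of 2 tested epithelial markers was called. Ngfr, the tested gene of the Schwann cell list, was called higher, and no pericyte marker was tested. In pgWAT female replicate 4 Ngfr made up 600 of the 602 CPM summed over that list. The study also stained the protein of Ngfr on precursor cells of pgWAT. Summed mesothelial markers ran from 1.96 to 1686 CPM in iWAT and from 72.9 to 365 CPM in pgWAT, macrophage markers from 629 to 2451 and from 731 to 7875 CPM, and smooth muscle markers from 599 to 3571 and from 1273 to 3200 CPM. None of the markers on these lists was at 0 in all libraries. Their part in the results below was not tested.

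Which WNT genes differ between the fat depots was asked in all 29 libraries, both labelled sexes weighted equally. In pgWAT the 4 frizzled receptors tested, both LRP co-receptors and the antagonists Frzb and Sfrp1 were higher. The ligands Wnt2 and Wnt5a and the Dickkopf genes Dkk2 and Dkk3 were lower. Of the 13 members tested, 12 were called by edgeR's quasi-likelihood test at a false discovery rate (FDR) below 0.05, 8 higher and 4 lower. Over all 8853 genes tested 38.1% were called, 20.2% higher and 17.9% lower. The median log2 fold change of the 13 was 0.65, against 0.01 over all genes. Without the 5 libraries that went against or mixed their sex label, 9 of the 13 were called, against 23.7% of all genes, and Fzd7, Lrp5 and Wnt2 were not.

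**Figure D1:**
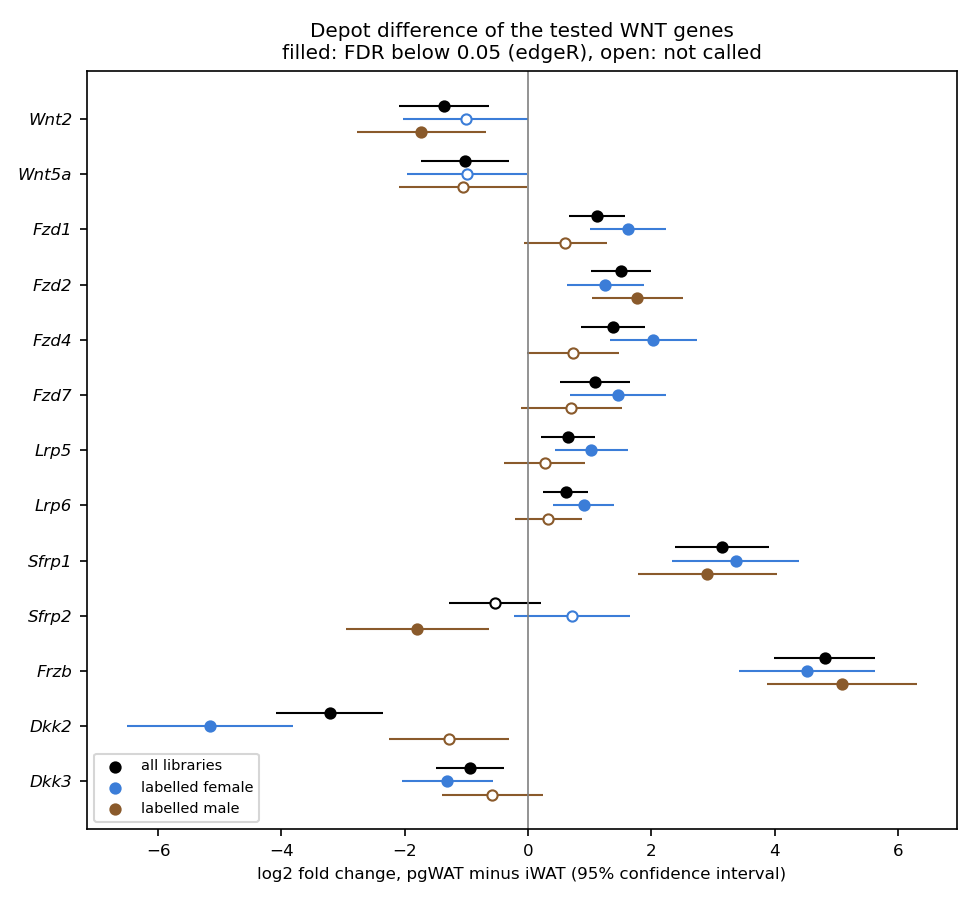
Log2 fold change (pgWAT minus iWAT) of the 13 tested WNT genes with 95% confidence intervals, over all libraries and within each labelled sex. Filled points were called at an FDR below 0.05. Frzb stands at 4.81 and Sfrp1 at 3.14, Dkk2 at -3.22, and the receptors lie between 0.62 and 1.51.

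WNT ligands were few and low. Of the 19 genes 18 were detected, but 8 of these had only 1 to 3 counts in all libraries together, and Wnt6 had none. Wnt2 and Wnt5a were the ligands that could be tested. Wnt2 (ENSMUSG00000010797.7), a ligand of the canonical branch, was the highest of the ligands in iWAT per length, at 8.87 ± 4.67 CPM per kb of transcript (SD, n = 19). In iWAT it ran from 4.20 through a median of 18.7 to 39.1 CPM, and in pgWAT from 0 through 5.94 to 16 CPM. All 10 pgWAT libraries lay below the iWAT mean, though the depots overlapped. By label, the iWAT means were 24.4 ± 10.4 CPM for male (SD, n = 10) and 15.1 ± 8.65 CPM for female (n = 9), and the pgWAT means 7.33 ± 6.39 CPM for male (n = 4) and 7.47 ± 6.53 CPM for female (n = 6). Its log2 fold change was -1.37 (SE 0.36, FDR 0.00275). That call was lost without the libraries in doubt (-0.99, FDR 0.0603) and with the well column as a factor (-0.79, FDR 0.126).

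Wnt5a (ENSMUSG00000021994.16), a ligand mostly of the branch that does not use beta-catenin, ran from 1.24 through 11.6 to 18.9 CPM in iWAT and from 0 through 6.17 to 12.5 CPM in pgWAT. Its log2 fold change was -1.03 (SE 0.35, FDR 0.0197), and 9 of 10 pgWAT libraries lay below the iWAT mean. By limma-voom it was not called (FDR 0.0634).

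Wnt4 (ENSMUSG00000036856.5), which the study discussed as a ligand of female pgWAT, was below the filter. It had 16 counts in 9 of the 19 iWAT libraries and 33 counts in 10 of the 10 pgWAT libraries. Per total count this was 4.59-fold higher in pgWAT, with a counting interval of 2.45 to 8.92. The 6 libraries labelled pgWAT female held 15.0, 13, 6.92, 6.52, 6.41 and 5.94 CPM, and the 4 labelled pgWAT male 5.21, 5.20, 2.78 and 1.07 CPM. Every library labelled female lay above every library labelled male, at 8.97 ± 3.98 (SD, n = 6) and 3.56 ± 2.02 CPM (SD, n = 4), but each value rests on 1 to 6 counts. The highest value labelled female, 15.0 CPM in replicate 2, had 0 Xist and 23 Y-linked counts. The lowest labelled male, 1.07 CPM in replicate 4, had 60 Xist and 0 Y-linked counts. Grouped by sex-linked counts instead of label, the libraries overlapped. In a fit without the filter on low counts Wnt4 was not called between the labelled sexes (-1.29, FDR 0.714). Among the 3 female libraries whose sex-linked counts fit the label Wnt4 ran from 5.94 to 13 CPM. The 2 such male libraries had 2.78 and 5.21 CPM. Of the 20714 genes with a count in pgWAT, 0.888% had labelled sexes that did not overlap.

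Wnt11 showed the opposite depot pattern, with 19 counts in 13 iWAT libraries and 1 count in pgWAT, an iWAT to pgWAT ratio of 8.54 with a counting interval of 1.36 to 355. Wnt5b (42 and 19 counts), Wnt16 (19 and 18) and Wnt9a (16 and 14) were detected in both depots. Their pgWAT to iWAT ratios were 1.01, 2.11 and 1.95, and the counting interval of Wnt16 reached down to 1.04 while the other 2 included 1. The remaining ligands had at most 10 counts in all.

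R-spondins had few counts in iWAT and more in pgWAT. Rspo1 (ENSMUSG00000028871.8), whose product the study discussed with Wnt4, had 3 counts over 3 of the 19 iWAT libraries and 63 counts over all 10 pgWAT libraries. The ratio per total count was 46.7, with a counting interval of 15.3 to 232. The pgWAT libraries labelled female held 20.8, 19.6, 12.5, 8.91, 6.41 and 3.26 CPM and those labelled male 15.3, 8.66, 7.51 and 3.47 CPM, while the highest iWAT library held 2.26 CPM. No pgWAT library overlapped iWAT, but the separation is narrow in counts. The lowest pgWAT library, female replicate 6, and the highest iWAT library, male replicate 10, each held 1 count, and the lowest pgWAT values lie within the limit that a count of 0 allows in the shallower libraries. Across the 26512 genes with at least 1 count, 0.732% had depots that did not overlap, and of the 46 WNT genes Rspo1 and Frzb did. The labelled sexes within pgWAT overlapped, at 11.9 ± 7.09 (SD, n = 6) and 8.73 ± 4.90 CPM (SD, n = 4).

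Rspo3, another R-spondin, had 1 count in iWAT and 19 counts in 8 of 10 pgWAT libraries. Its ratio was 42.2, and the counting interval ran from 6.72 to 1756. Rspo2 had 2 counts in each depot and Rspo4 1 count in iWAT. In a fit without the filter on low counts, edgeR called Rspo1 (4.61, FDR 7.24e-12), Rspo3 (3.66, FDR 1.00e-05) and Wnt4 (2.00, FDR 0.00589) higher and Wnt11 (-2.23, FDR 0.0484) lower, so that 16 of 43 were called against 13.9% of all genes in that fit. Within labelled male 8 of 43 were called there, Rspo1, Rspo3 and Dkk2 among them, against 6.91% of all genes. Of the mesothelial markers, Upk3b and Wt1 were chosen here after their values were seen, and the summed level of the list overlapped between depots, as given above. Upk3b had 1 count over the 19 iWAT libraries and 19.1 to 72.0 CPM in pgWAT, and Wt1 had 6 counts in iWAT and 9.66 to 40.1 CPM in pgWAT. Their part in the R-spondin values was not tested.

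**Figure D2:**
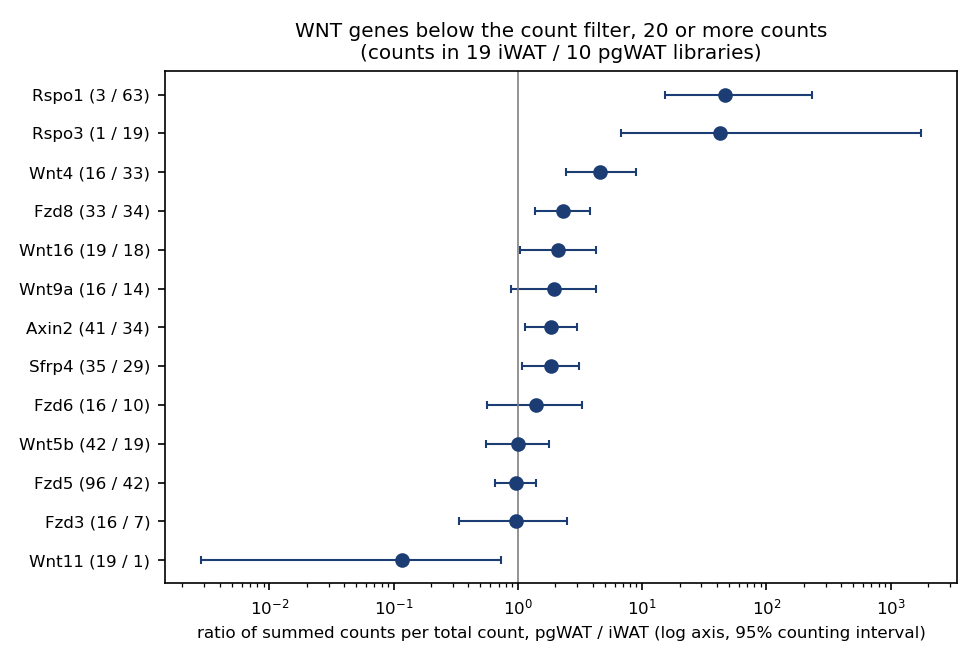
Ratio of summed counts per total count, pgWAT over iWAT, on a log axis, for the 13 WNT genes that failed the count filter but had 20 or more counts in all. Bars are 95% counting intervals and do not include the spread between wells. Rspo1 (3 and 63 counts) and Rspo3 (1 and 19) lie far above 1 and Wnt11 (19 and 1) below it.

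The tested receptors rose in pgWAT. All 4 frizzled receptors that were tested and both co-receptors were called higher. Summed over all 10 frizzled genes, tested or not, and both co-receptors, the level per length was 21.3 ± 4.39 CPM per kb in iWAT (SD, n = 19). In pgWAT this sum was 45.1 ± 9.85 CPM per kb (SD, n = 10). The lowest pgWAT library (33.3 CPM per kb) lay above the highest iWAT library (31.6 CPM per kb). The log2 fold changes were 1.51 for Fzd2 (SE 0.24, FDR 4.82e-06), 1.38 for Fzd4 (SE 0.25, FDR 4.26e-05), 1.12 for Fzd1 (SE 0.22, FDR 0.000138), 1.08 for Fzd7 (SE 0.28, FDR 0.00222), 0.65 for Lrp5 (SE 0.22, FDR 0.0174) and 0.62 for Lrp6 (SE 0.18, FDR 0.00673). Single receptors overlapped between depots.

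Fzd1 (ENSMUSG00000044674.7) was the highest receptor per length in both depots, at 6.39 ± 2.57 CPM per kb in iWAT (SD, n = 19) and 14.3 ± 7.14 CPM per kb in pgWAT (SD, n = 10). It ran from 11.3 through 27.8 to 50.9 CPM in iWAT. In pgWAT it ran from 13.9 through 51.6 to 104 CPM, and 5 of 10 libraries exceeded every iWAT library. By label it averaged 67.6 ± 26.9 CPM in pgWAT female (SD, n = 6), 48.3 ± 34.5 CPM in pgWAT male (n = 4), 31.4 ± 11.6 CPM in male iWAT (n = 10) and 21.7 ± 7.36 CPM in female iWAT (n = 9). Fzd2 (ENSMUSG00000050288.7), next in pgWAT at 11.6 ± 5.38 CPM per kb (SD, n = 10), did not differ from Fzd1 there beyond the spread between libraries. It ran from 2.26 through 12.7 to 33.5 CPM in iWAT and from 15.6 through 46.0 to 81.4 CPM in pgWAT. All 10 pgWAT libraries were above the iWAT mean and 6 above every iWAT library.

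Fzd4, a receptor that also binds Norrin, ran from 1.19 through 8.67 to 22.6 CPM in iWAT and from 12.5 through 23.2 to 38.4 CPM in pgWAT, all 10 pgWAT libraries above the iWAT mean. Fzd7, close in sequence to Fzd1 and Fzd2, ran from 0 through 7.94 to 11.9 CPM in iWAT and from 3.47 through 17.9 to 23.8 CPM in pgWAT. Fzd1 and Fzd2 share 1.61% and 1.9% of their 31-base stretches with another transcript, so that reads were split between them over a small part of their length. The co-receptor Lrp5 ran from 4.15 through 14.8 to 28.5 CPM in iWAT and from 13.9 through 23.6 to 52.1 CPM in pgWAT. Lrp6 ran from 10.5 through 23.8 to 47.5 CPM in iWAT and from 22.5 through 46.4 to 54.3 CPM in pgWAT. Without pgWAT male replicate 4 the Lrp5 call was lost (0.58, FDR 0.0565).

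Of the receptors below the filter, Fzd8 had 33 counts in iWAT and 34 in pgWAT, a ratio of 2.29 with a counting interval of 1.38 to 3.82, but 13 of the 34 came from pgWAT female replicate 3. Fzd5, with 96 and 42 counts, had a ratio of 0.973 with an interval of 0.660 to 1.41. Fzd3 and Fzd6 had 16 iWAT counts each and 7 and 10 in pgWAT, Fzd10 had 2 counts in all, and Fzd9 had none.

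Secreted antagonists took the largest share of the summed CPM per kb of WNT genes in both depots, and different members led it. By this sum the antagonists held 57.8% ± 9.32 of all 46 genes, Axin2 included, in iWAT (SD, n = 19) and 64.5% ± 9.48 in pgWAT (SD, n = 10). Dkk3 led iWAT with 32.3% ± 10.8 (SD, n = 19), followed by Dkk2 with 10.1% ± 3.26. Dkk3 was counted with the antagonists although its role is less clear. The lead of this class over the receptors in iWAT rested largely on Dkk3. In pgWAT Frzb led with 32.3% ± 22.5 (SD, n = 10) and Sfrp1 followed with 19.9% ± 17.6, a difference within the spread between libraries. Ligands held 16.1% ± 4.19 in iWAT and 5.31% ± 2.81 in pgWAT, R-spondins 0.279% ± 0.516 and 3.88% ± 2.25, and receptors 25% ± 7.37 and 25.5% ± 7.13. A share also moves with the levels of the other classes. The summed level of the ligands was 14.2 ± 4.34 CPM per kb in iWAT (SD, n = 19) and 9.01 ± 2.73 CPM per kb in pgWAT (SD, n = 10).

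**Figure D3:**
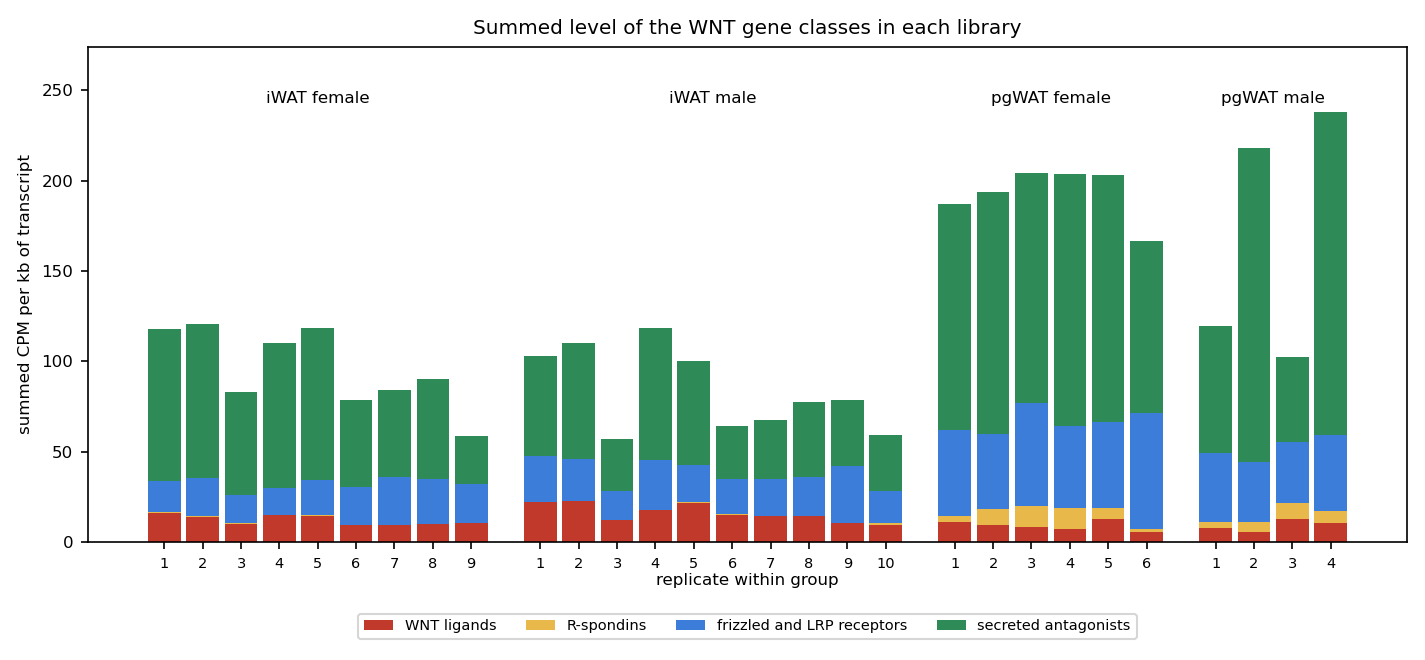
Summed CPM per kb of transcript of the WNT ligands, R-spondins, receptors and secreted antagonists (Dkk3 counted among them), 1 stacked bar per library, by depot and labelled sex. Receptors (mean 21.3 in iWAT and 45.1 in pgWAT) and antagonists (53.6 and 123) make up most of each bar, and R-spondins are visible mainly in pgWAT.

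Frzb (ENSMUSG00000027004.4), also called Sfrp3, binds WNT ligands and had the largest log2 fold change of the 13 tested members in the fit over all libraries, while that of Dkk2 was larger in size within labelled female and without the libraries in doubt. The iWAT libraries ran from 0 through 6.23 to 15.4 CPM. The pgWAT libraries labelled male held 19.1, 23.6, 398 and 424 CPM and those labelled female 55.1, 63.0, 195, 212, 333 and 349 CPM. Every pgWAT library was above every iWAT library, with a log2 fold change of 4.81 (SE 0.41, FDR 1.60e-11). The spread within pgWAT was wide under both labels, with means of 216 ± 225 CPM for male (SD, n = 4) and 201 ± 126 CPM for female (n = 6). Without the libraries in doubt the depot difference was 3.41 (FDR 2.22e-09).

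Sfrp1 (ENSMUSG00000031548.8), an antagonist with the same frizzled-like domain, ran from 0 through 13.6 to 35.2 CPM in iWAT. In pgWAT the libraries labelled male held 19.1, 50.5, 149 and 241 CPM and those labelled female 44.3, 44.5, 52.1, 141, 339 and 348 CPM. All but 1 of the 10 pgWAT libraries lay above every iWAT library (3.14, SE 0.37, FDR 3.19e-08). Without the libraries in doubt the depot difference of Sfrp1 was 2.62 (FDR 5.71e-08). Sfrp2, of the same family, was not called (-0.54, FDR 0.261). It ran from 0 through 14.7 to 38.0 CPM in iWAT and from 2.78 through 6.92 to 42.6 CPM in pgWAT, and with the well column as a factor it was called lower (-1.02, FDR 0.0483). Sfrp4 had 35 counts in iWAT and 29 in pgWAT, of which pgWAT male replicates 2 and 4 held 12 each.

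Dkk2 (ENSMUSG00000028031.7), a ligand of the LRP co-receptors, was detected in all 19 iWAT libraries, from 10.9 through 30.4 to 67.1 CPM. In pgWAT it had 0 counts in 5 libraries, between 1.39 and 6.41 CPM in 3, and 19.3 and 20.8 CPM in male replicates 4 and 2, the libraries with Xist and at most 1 Y-linked count under a male label. In 8 of 10 pgWAT libraries it lay below every iWAT library, and it fell by 3.22 on the log2 scale (SE 0.43, FDR 2.54e-07). Without the libraries in doubt it fell by 5.33 (FDR 1.89e-08).

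Dkk3 (ENSMUSG00000030772.7) was the highest WNT gene per length in iWAT, at 30.6 ± 16.2 CPM per kb (SD, n = 19). It ran from 33.0 through 98.9 to 199 CPM there and from 11.1 through 50.5 to 99.8 CPM in pgWAT. All 10 pgWAT libraries lay below the iWAT mean of 103 CPM, though the depots overlapped, and the log2 fold change was -0.94 (SE 0.27, FDR 0.00635). The iWAT libraries themselves differed by well, since the 4 iWAT female libraries in column 7 held 177 to 199 CPM and the 3 in column 8 held 72.6 to 99.5 CPM. With the well column as a factor Dkk3 was not called (-0.52, FDR 0.168). Without the libraries in doubt it was called (-2.05, FDR 5.27e-05). Dkk1, Dkk4 and Wif1 had 3, 2 and 1 counts in iWAT and none in pgWAT.

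**Figure D4:**
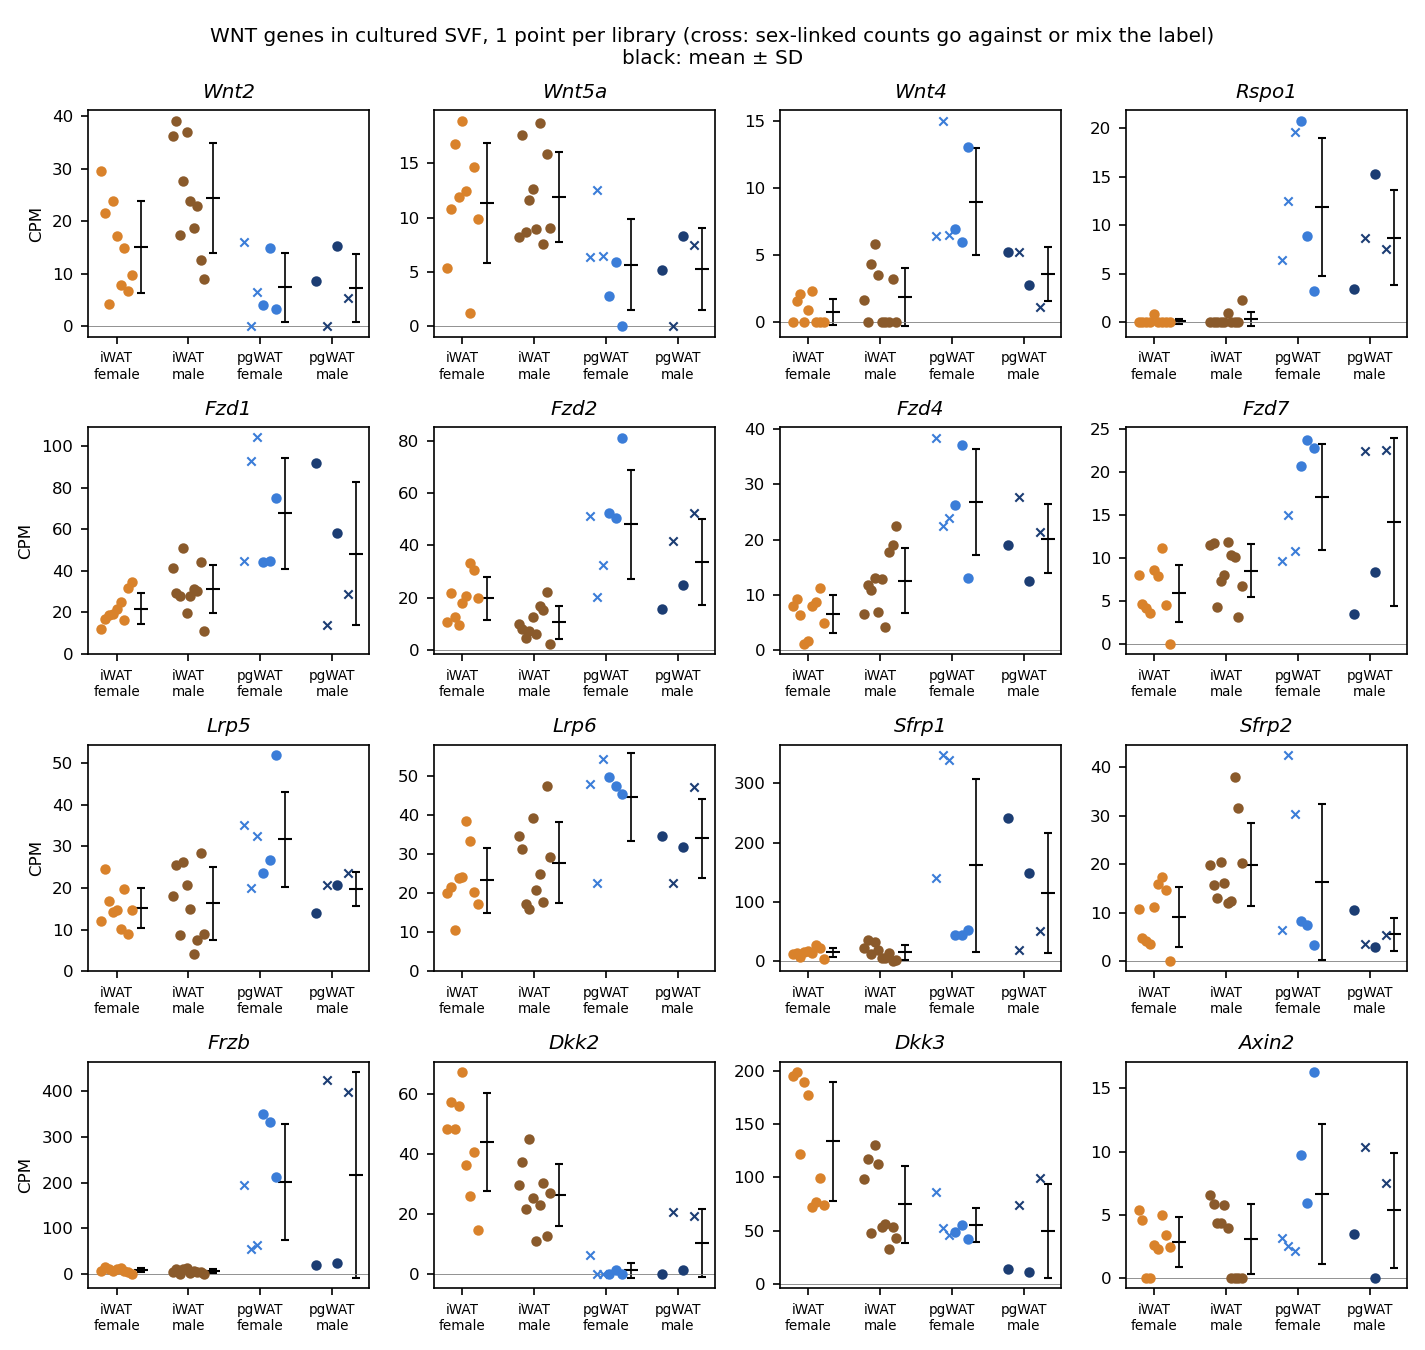
CPM of 16 WNT genes in each library, by depot and labelled sex. Crosses are the pgWAT libraries whose sex-linked counts go against or mix the label, and black bars give the mean and SD. Frzb and Rspo1 separate the depots, and Frzb, Sfrp1 and Dkk2 spread widely within pgWAT.

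The depot difference was then read within each labelled sex. In libraries labelled female 10 of 13 members were called (26.8% of all genes were, 14.2% higher and 12.6% lower), with Fzd1 (1.62, FDR 0.000101), Fzd2, Fzd4 (2.03, FDR 3.35e-05), Fzd7, Lrp5, Lrp6, Sfrp1 (3.37) and Frzb (4.53) higher and Dkk2 (-5.16, FDR 3.14e-07) and Dkk3 (-1.31, FDR 0.00705) lower. In libraries labelled male 5 of 13 were called (20.3% of all genes were, 11.8% higher and 8.53% lower), with Frzb (5.10, FDR 1.02e-07), Sfrp1 (2.91) and Fzd2 (1.78) higher and Wnt2 (-1.73, FDR 0.0152) and Sfrp2 (-1.79, FDR 0.0225) lower. The pgWAT libraries in doubt enter both contrasts. In male the calls of Wnt2 and Sfrp2 were lost without pgWAT male replicate 2 (FDR 0.0656 and 0.0704) or 4 (FDR 0.0632 and 0.0650), that of Sfrp2 also without male replicate 3 (FDR 0.0704), and Dkk2 (-1.28, FDR 0.0546) was called without male replicate 2 (-1.69, FDR 0.0328) or 4 (-1.89, FDR 0.0272), without iWAT male replicate 6 (FDR 0.0350) or 9 (FDR 0.0479), pgWAT female replicate 1 (FDR 0.0493) or iWAT female replicate 9 (FDR 0.0450). In female Wnt5a (-0.99, FDR 0.127) was called without iWAT female replicate 7 (-1.16, FDR 0.0445).

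With those libraries left out, the same 10 were called in female (18.3% of all genes were), on 3 pgWAT libraries. In male, on 2 pgWAT libraries, 5 were called (9.16% of all genes were), of which only Frzb (1.74, FDR 0.0284) and Sfrp1 (3.66, FDR 4.42e-08) were among the 5 above. Dkk2 (-4.81, FDR 0.000251), Dkk3 (-2.64, FDR 0.00271) and Fzd1 (1.23, FDR 0.00730) were then called, and Fzd2, Wnt2 and Sfrp2 were not. Within single well columns, column 8, whose 3 pgWAT female libraries match their label, gave 10 female calls (14% of all genes were called), with Rspo1 (6.09, FDR 0.00638) in place of Lrp6. Column 9, whose 2 pgWAT libraries are male replicates 2 and 4, gave 5 male calls (23.2% of all genes were called) that included Dkk3 as higher (0.73, FDR 0.0407).

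Whether any of these depot differences depends on the labelled sex was tested as an interaction. None of the 13 was called by edgeR (0.181% of all genes were). At an unadjusted p below 0.05 there were 4, Dkk2 (3.89, FDR 0.0722), Sfrp2 (-2.51, FDR 0.193), Fzd4 (-1.30) and Fzd1 (-1.01), and DESeq2 called Dkk2 (4.04, FDR 0.0118, with 0.418% of all genes called) and limma-voom none (0.0226% of all genes). Without the filter on low counts Dkk2 was the 1 member called, against 0.275% of all genes. It was also called by edgeR without pgWAT male replicate 1 (4.25, FDR 0.0160), male replicate 3 (4.25, FDR 0.0256), female replicate 1 (4.99, FDR 0.0386) or iWAT female replicate 9 (3.98, FDR 0.0453). Without all 5 libraries in doubt the Dkk2 term was 1.05 (FDR 0.927), and Frzb was called instead (-3.34, FDR 0.000969, with 2.56% of all genes called).

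Between libraries labelled male and female within pgWAT no member was called (0.0113% of all genes were). At an unadjusted p below 0.05 there were 2, Dkk2 (3.13, FDR 0.275) and Sfrp2 (-1.56, FDR 0.495). By limma-voom no member was called (0.0678% of all genes were). DESeq2 (0.181% of all genes called) gave no FDR for several members, Dkk2 (3.30) and Sfrp2 (-1.60) among them, and so could not call these. It called none of the members that had an FDR. Without the filter on low counts Dkk2 was called, against 0.223% of all genes. With 2 male and 3 female libraries left after removing those in doubt, Frzb was lower in male (-3.83, FDR 6.17e-07) and Sfrp1 higher in male (2.03, FDR 0.00925), against 5.63% of all genes called. Fzd1 was 0.49 (FDR 0.591) in that fit.

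Taken library by library, Frzb and Sfrp1 had opposite orders within pgWAT. In the libraries with Y-linked counts and no Xist count, which are male 1 (well column 8), male 3 (column 7) and female 2 and 3 (column 10), Frzb held 19.1, 23.6, 55.1 and 63.0 CPM and Sfrp1 241, 149, 348 and 339 CPM. In the libraries with Xist and at most 1 Y-linked count, which are female 6, 5 and 4 (column 8) and male 4 and 2 (column 9), Frzb held 212, 333, 349, 398 and 424 CPM and Sfrp1 52.1, 44.5, 44.3, 50.5 and 19.1 CPM. Female replicate 1, with both, stood between them in Frzb (195 CPM) and just under the former in Sfrp1 (141 CPM). No test is given, since these sets are not the labelled groups.

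Other values differed along the same line of libraries. Ngfr, a receptor on the Schwann cell list that the study also discussed as a gene of female pgWAT precursors, had 0 counts in the 4 libraries with Y-linked counts and no Xist, and 375 to 719 CPM in the other 6. Summed macrophage markers held 3201 to 7875 CPM in those 4, 2213 CPM in female replicate 1 and 731 to 1171 CPM in the other 5. Sfrp2 was highest in female replicates 2 and 3, at 42.6 and 30.4 CPM, and at most 10.4 CPM elsewhere in pgWAT. Dkk3 was lowest in male replicates 1 and 3, at 13.9 and 11.1 CPM. Within well column 8, male replicate 1 held 19.1 CPM of Frzb and 241 CPM of Sfrp1, and female replicates 4 to 6 held 212 to 349 and 44.3 to 52.1 CPM. Sex of the donor, cell mixture and culture experiment cannot be told apart in these 10 libraries.

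**Figure D5:**
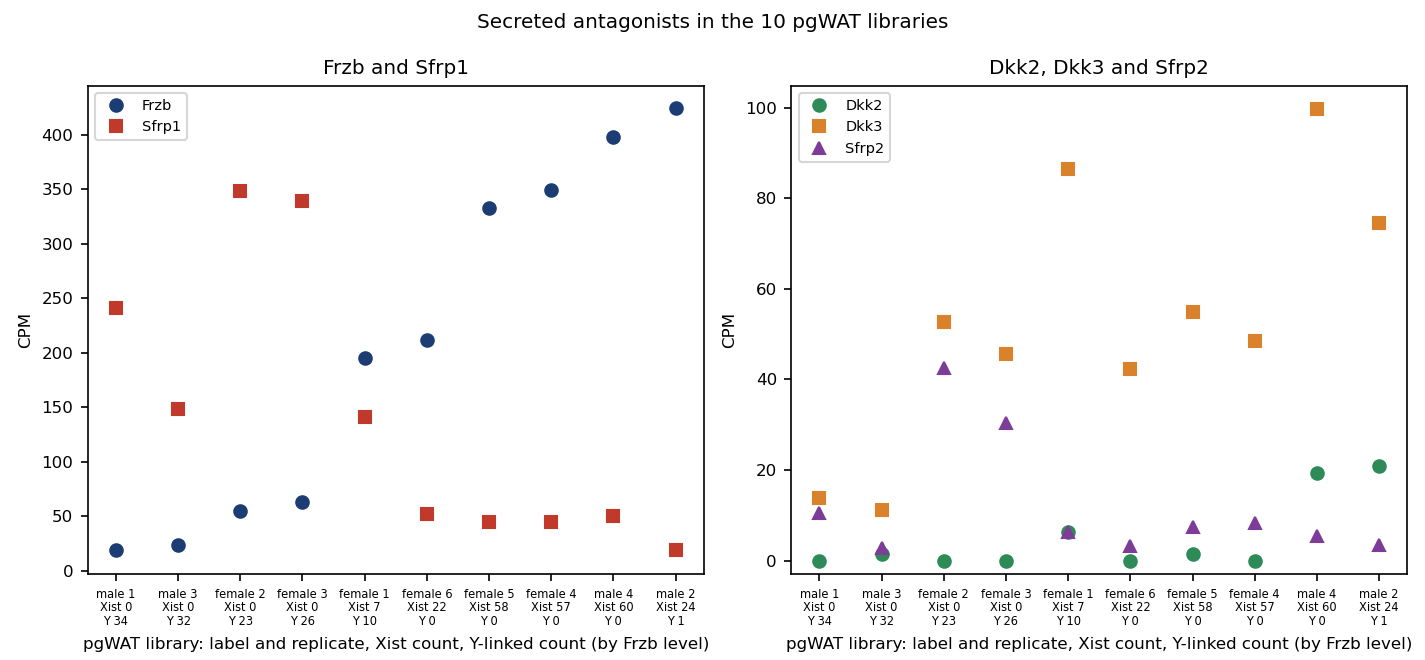
CPM of Frzb and Sfrp1 (left) and of Dkk2, Dkk3 and Sfrp2 (right) in the 10 pgWAT libraries, ordered by Frzb, with each label and its counts of Xist and of 4 Y-linked genes. The 4 libraries at the left, with Y-linked counts and no Xist, hold 19.1 to 63.0 CPM of Frzb and 149 to 348 CPM of Sfrp1, and the 5 at the right 212 to 424 and 19.1 to 52.1 CPM.

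In iWAT, where all labels matched, no member was called between the sexes by edgeR, DESeq2 or limma-voom (3.22%, 4.43% and 2.67% of all genes were). At an unadjusted p below 0.05 there were 6. Fzd2 (-0.99, FDR 0.0857), Dkk3 (-0.81, FDR 0.124) and Dkk2 (-0.76, FDR 0.194) had lower values in male, and Fzd4 (0.87, FDR 0.169), Sfrp2 (0.95, FDR 0.191) and Wnt2 (0.70, FDR 0.312) higher. Among them Dkk2 had a median of 26.2 CPM in male (lowest 10.9, highest 45.1, n = 10) and 48.3 CPM in female (lowest 14.8, highest 67.1, n = 9), and the sexes overlapped.

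These iWAT differences moved with the fit. Within well column 7, which holds 7 male and 4 female libraries, Dkk2 (-0.93, FDR 0.0269) and Dkk3 (-1.13, FDR 0.0133) were called lower in male and Sfrp2 higher (1.46, FDR 0.0410), against 2.66% of all genes called. With the well column as a factor Dkk3 and Sfrp2 were called, against 5.6% of all genes, and without the filter on low counts Dkk3 and Fzd2, against 1.92%. Without the 5 pgWAT libraries in doubt, Dkk2 (FDR 0.0496), Dkk3 (FDR 0.0320) and Fzd2 (FDR 0.0353) were called, against 5.84% of all genes. Those libraries enter this contrast through the shared estimate of spread, the scaling and the filter, which then left 9516 genes tested.

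Because the study discussed WNT genes for female pgWAT, libraries labelled pgWAT female were also compared with the mean of the other 3 groups, and 9 of 13 members were called (21.2% of all genes were, 11.8% higher and 9.39% lower). Higher were Frzb (3.15, FDR 5.43e-07), Sfrp1 (2.42, FDR 2.78e-05), Fzd2 (1.32), Fzd4 (1.21), Fzd1 (1.07, FDR 0.00245), Fzd7 (0.90), Lrp5 (0.84) and Lrp6 (0.66), and Dkk2 was lower (-4.23, FDR 3.00e-05). As 2 of the other 3 groups are iWAT, this contrast holds much of the depot difference. The Fzd7 call (FDR 0.0415) was lost without pgWAT female replicate 2, 4, 5 or 6, pgWAT male replicate 1 or 3, iWAT female replicate 2 or 4 or iWAT male replicate 4 (FDR 0.0507 to 0.150), that of Lrp6 without pgWAT female replicate 3, 4 or 5 (FDR 0.0571 to 0.0677) and that of Lrp5 without pgWAT female replicate 6 (FDR 0.0760). With the well column as a factor Frzb, Fzd2 and Dkk2 remained called, against 10.5% of all genes. Without the libraries in doubt Frzb (4.82), Fzd2 (1.9), Fzd7 (1.67), Fzd4 (1.32) and Lrp6 (0.78) were called, against 16.4% of all genes, and Fzd1 was not (0.51, FDR 0.222).

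Axin2, the feedback target that is often read as a gauge of canonical signaling, was below the filter. It had 41 counts in 13 of 19 iWAT libraries and 34 counts in 9 of 10 pgWAT libraries. Per total count the ratio was 1.84, and its counting interval ran from 1.14 to 2.98. In pgWAT its lowest values were 0 and 2.17 CPM and its highest 16.3 and 10.4 CPM. In the fit without the filter it was not called (0.84, FDR 0.306).

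Of 38 other WNT pathway genes, 25 were tested, and 5 were called higher and 2 lower in pgWAT, where 38.1% of all genes were called. Their median log2 fold change was 0.17, against 0.01 over all genes. Nkd2, an antagonist of Dishevelled (1.44, FDR 5.08e-09), and Ccn5, a matricellular target (0.70, FDR 0.0453), were higher and Ccnd1, the cyclin that drives the G1 phase, was lower (-2.85, FDR 6.83e-09) among 4 known targets tested. Of 4 other receptors Ptk7, a co-receptor, was higher (1.26, FDR 6.80e-09). Of 9 cytoplasmic transducers Dvl1 was higher (0.69, FDR 0.00935), and beta-catenin itself, Ctnnb1, was not called (0.25, FDR 0.0507). Of 2 TCF/LEF factors Tcf7l2 was higher (0.31, FDR 0.0418), and of 2 other antagonists Trabd2b, a protease that cuts WNT ligands, was lower (-1.45, FDR 3.63e-06). None of 3 R-spondin receptors and ligases was called, among them Lgr4 (0.09, FDR 0.831) and Znrf3 (-0.05, FDR 0.905), nor was Wls, which carries WNT ligands to the cell surface (0.11, FDR 0.418).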

How the data were processed

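The authors trimmed adapters, quantified reads with Salmon 1.9.0 against Gencode transcripts on GRCm39 and summed them to genes. The deposited values are estimated counts per gene, UMI and other reads together and not normalized, and were rounded to whole numbers. Of 56953 features 52029 (91.4%) were matched to a symbol through the GRCm38 annotation, which also gave transcript lengths. CPM used library totals scaled by TMM factors (0.948 to 1.05). edgeR 4.0.16 in R 4.3.3 (filterByExpr, quasi-likelihood test, two-sided, 1 term per group over all 29 libraries, Benjamini-Hochberg over 8853 genes) gave all tests, and was tested on simulated data. Estimates of low genes depend on its prior count. Alternatives were DESeq2 1.42.0, limma-voom (limma 3.58.1), other scaling, no filter, well column as a factor or alone, omission of the libraries in doubt and of each library.

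The members, pathway and marker lists were chosen with earlier results of these data known. All tested members are named with values, with Wnt4, Rspo1, Fzd1 and Frzb, which the study discussed, and called pathway genes. Where others are named, they were chosen after their values were seen. Ratios of summed counts have exact 95% intervals, and intervals and limits cover counting error only. Libraries of a group were compared in pairs, and the lowest chi-square per gene was 1.57, above sampling noise, so none was treated as a library deposited more than once. Wells of 1 culture are not independent, and n counts wells.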

Additional observations from a re-analysis of the deposited data

Results flagged for a closer look

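Of 52 combinations of a tested member and a group of 4 to 10 libraries, 3 had a library far from the others by Dixon's ratio at its 95% critical value, which chance gives in about 1 in 20 groups. Lrp6 was lowest in pgWAT female replicate 2, at 22.5 CPM against 45.6 CPM in the next library. Dkk2 was highest in pgWAT female replicate 1, at 6.41 CPM against 1.48 CPM, but this is 2 counts against 1 count. Dkk3 was highest in the same library, at 86.5 CPM against 54.9 CPM. Both libraries are among the 5 whose sex-linked counts went against or mixed the label.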

How the results depend on the processing

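No paired analysis was possible because the labels carry no replicate numbers. Depot, 12 members called, held at 9 to 16 under every alternative, and no tested member changed direction in it (456 member values on the same side, 7 no longer called, 1 newly called). Leaving out 1 library gave 11 to 12 calls for depot, 4 to 6 for depot in male, 10 to 11 in female, 0 to 0 for sex in iWAT and in pgWAT, 0 to 1 for the interaction and 7 to 9 for pgWAT female against the other groups. With no filter there were 8 calls for depot in male, 2 for sex in iWAT, 1 for sex in pgWAT and 1 for the interaction. With the well column as a factor there were 2 for sex in iWAT and 3 for pgWAT female, and column 7 alone gave 3 for sex in iWAT. Without the libraries in doubt there were 3 for sex in iWAT, 2 for sex in pgWAT, 1 for the interaction and 5 for pgWAT female. DESeq2 gave 1 for the interaction. The cause was not tested, except that without the filter 43 members were tested in place of 13. Depth limits the 33 members below the filter: Wnt6, Fzd9 and Sfrp5, at 0 counts, could reach 0.238 CPM over all iWAT and 0.528 CPM over all pgWAT libraries.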
